A study of Caenorhabditis elegans with 18 samples.

Results

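The comparison described here is ints-4(RNAi) worms with cadmium against ints-4(RNAi) worms without cadmium, which takes 6 of the 18 samples of the series. All 6 are whole N2 worms, the wild-type Caenorhabditis elegans laboratory strain, fed from the first larval stage on bacteria that make double-stranded RNA against ints-4. The ints-4(RNAi) worms with cadmium (3 libraries) were then moved to agar with 300 μM cadmium for 12 h, and the ints-4(RNAi) worms without cadmium (3 libraries) to agar without it. The 3 libraries of a group were biological replicates, collected at about the young adult stage. Groups were set by the sample labels, not by any measured value. For comparison, the same contrast was taken in control(RNAi) worms, which carried the empty RNAi vector (3 libraries with 300 μM cadmium for 12 h and 3 without). What was shared by all 12 libraries is the strain, the RNAi feeding format and an oligo(dT) library, which captures RNA with a poly(A) tail. A feeding RNAi lowers a transcript in whole animals and does not remove the gene, and a whole-animal library cannot tell fewer cells of a type apart from less RNA per cell.

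INTS-4 is a subunit of the Integrator complex, which travels with RNA polymerase II and cleaves the 3′ ends of newly made small nuclear RNAs, the RNA parts of the spliceosome. INTS-4 belongs with INTS-9 and INTS-11 to the module that cuts. Cadmium is a toxic metal that resembles zinc in its chemistry. In C. elegans it is bound by metallothioneins and phytochelatins, it induces the lysosomal membrane protein CDR-1, and it also raises genes of glutathione conjugation, drug metabolism and protein folding. The contrast asks how much of that response takes place in worms with less ints-4.

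Expression is given as the normalised count, which is the number of reads over a gene divided by the size factor of its library. The deposited table holds 1 mean of 3 libraries per group, and the whole counts of each library were recovered from the digits of that mean for 99.48% of the genes seen in ints-4(RNAi) worms with cadmium and for 100% in those without. The genes that could not be separated were abundant ones and held 34.9% of the normalised counts with cadmium. The recovered counts came to 22914160, 22953717 and 20888915 reads in ints-4(RNAi) libraries 1, 2 and 3 with cadmium, and to 36670927, 34604859 and 34978540 in those without. A gene is said to have risen or fallen where limma-voom gave a Benjamini-Hochberg adjusted p under 0.05 over all genes tested and a change of at least 2-fold. Library numbers follow the order of the values in the deposited splicing tables.

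Library 3 of ints-4(RNAi) with cadmium stood apart from libraries 1 and 2 of that group by transcript length. Relative to the mean of the 12 libraries, the median log2 deviation of its 192 genes with spliced transcripts over 6 kb was -0.88, against -0.26 and 0.02 in libraries 1 and 2. Its 2974 genes with transcripts under 1 kb had a median of 0.30, against 0.09 and -0.00. In ints-4(RNAi) libraries without cadmium the same medians were 0.11, -0.01 and 0.41 for the long genes and -0.04, -0.01 and -0.07 for the short ones. Results that rest on this library are given below with and without it, or with the length trend of each library removed. Among the control(RNAi) libraries with cadmium, library 1 was the most distant on the second principal component (76.5, against 45.5 and 45.3), which took 17.04% of the variance, and among those without cadmium library 3 had the largest deviation of long genes (0.69). Some differences between RNAi backgrounds are also given without library 1 of control(RNAi) with cadmium.

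**Figure D1:**
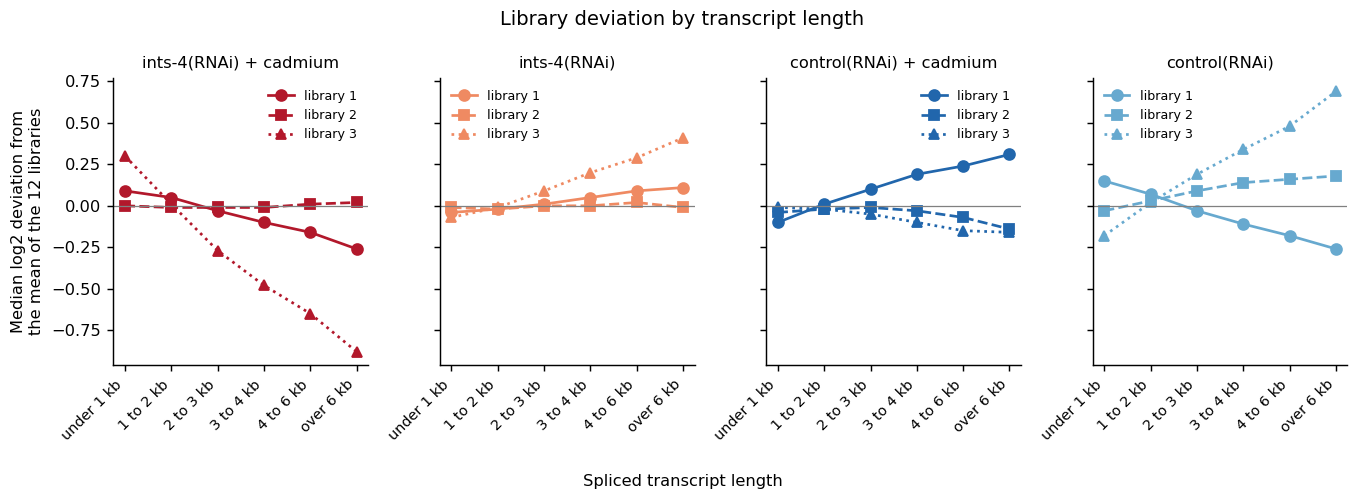
Median log2 deviation of each library from the mean of the 12 libraries (vertical axis) in bins of spliced transcript length in kb (horizontal axis), in 4 panels for ints-4(RNAi) with cadmium, ints-4(RNAi), control(RNAi) with cadmium and control(RNAi), with 1 line per library. In ints-4(RNAi) with cadmium, library 3 runs down from 0.30 for transcripts under 1 kb to -0.88 for those over 6 kb, while library 2 stays between -0.01 and 0.02.

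The knockdown itself was checked first. The target gene ints-4 (WBGene00012234) had 579, 689 and 499 normalised counts in ints-4(RNAi) worms with cadmium, against 666, 575 and 666 without. The groups overlapped (log2 change -0.12, SE 0.13, limma-voom adjusted p = 0.574). Control(RNAi) worms had 1260, 1292 and 1047 normalised counts with cadmium and 1333, 1420 and 1692 without, in tables the authors scaled separately. All 6 ints-4(RNAi) libraries were below all 6 control(RNAi) libraries, which fits their labels.

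Across all genes, 706 of 16947 (4.17%) had a group mean at least 2-fold higher in ints-4(RNAi) worms with cadmium than without, and 559 (3.3%) had one at least 2-fold lower. These counts use the 2 means of the authors, with at least 10 in one group, and carry no test. With the recovered counts, 470 of 16883 genes rose (2.78%) and 294 fell (1.74%), and the median log2 change of all genes was -0.02. At any fold, 2938 genes had an adjusted p under 0.05. Protein-coding genes made up 447 of those that rose and 219 of those that fell. Of the genes that rose and had a transcript length, 406 of 462 also rose with the length trend removed, and of those that fell, 221 of 270. Without library 3 of the cadmium group 484 genes rose, including 432 of those above, and 246 fell, including 203.

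Genes that handle metals had the highest median of the gene lists. Of 14 measured members of a 15-gene metal response list, 10 rose and none fell, with a median log2 change of 1.47. All 14 had an adjusted p under 0.05 in the positive direction, including the phytochelatin synthase gene pcs-1 (0.52) and the ABC transporter gene hmt-1 (0.54), which did not reach 2-fold. The count in control(RNAi) worms was 8 of 14. Of all genes 2.78% rose in ints-4(RNAi) and 5.6% in control(RNAi) worms.

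cdr-1 (WBGene00000412) had 15017, 13944 and 15319 normalised counts in ints-4(RNAi) worms with cadmium, against 94.4, 92.6 and 120 without. The groups lay far apart, with a log2 change of 7.18 (SE 0.14, adjusted p = 1.66e-08). The metallothionein gene mtl-1 (WBGene00003473) had 8686, 7642 and 9468 normalised counts with cadmium, against 418, 410 and 430 without. All cadmium libraries were again above all others, with a log2 change of 4.35 (SE 0.11, adjusted p = 4.93e-08). The second metallothionein gene, mtl-2 (WBGene00003474), had 36821, 36145 and 55643 normalised counts with cadmium, against 10234, 12737 and 11831 without. It rose by less, at 1.86 (SE 0.17, adjusted p = 1.15e-04), from a level without cadmium that was already high, and its highest value came from library 3. The relatives cdr-4 (2.22, adjusted p = 2.92e-06) and cdr-2 (1.18, adjusted p = 1.47e-04) also rose.

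The zinc genes of the list rose as well. cdf-2 (WBGene00011821), which encodes a zinc transporter of the gut, had 3294, 3041 and 3232 normalised counts in ints-4(RNAi) worms with cadmium, against 268, 349 and 385 without. Its groups did not overlap, with a log2 change of 3.27 (SE 0.13, adjusted p = 1.56e-06). hizr-1 (WBGene00013976), which encodes a nuclear receptor that binds zinc and switches on genes of high zinc, had 140, 172 and 148 normalised counts with cadmium, against 19.2, 28.9 and 31.4 without. It too was higher in every cadmium library (2.55, SE 0.27, adjusted p = 2.81e-04). Both genes changed more in ints-4(RNAi) than in control(RNAi) worms. For cdf-2, control(RNAi) worms had 2723, 2501 and 2473 normalised counts with cadmium, against 778, 860 and 855 without, and the difference between the log2 changes was 1.63 (adjusted p = 4.45e-05). hizr-1 had 221, 200 and 216 with cadmium, against 165, 119 and 111 without, and the difference was 1.83 (adjusted p = 0.00404). For both genes the lowest libraries of the 4 groups were those of ints-4(RNAi) worms without cadmium. Among 19 zinc transporter genes only cdf-2 and ttm-1 (1.20, adjusted p = 3.76e-05) rose, and the median of the list was 0.11.

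For cdr-1 and mtl-1 the test of the difference between RNAi backgrounds did not pass. cdr-1 had 19368, 15734 and 14886 normalised counts in control(RNAi) worms with cadmium, against 146, 88.3 and 111 without, and the difference between the log2 changes, ints-4(RNAi) minus control(RNAi), was -0.02 (adjusted p = 0.98). For mtl-1 the difference was -0.31 (adjusted p = 0.448). The numr-1 and numr-2 genes encode an SR-like nuclear protein and are identical copies, both named numr-1 in the annotation, so the split of reads between them is uncertain. The copy WBGene00017267 had 474, 684 and 653 normalised counts in ints-4(RNAi) worms with cadmium, against 248, 238 and 227 without (1.33, SE 0.16, adjusted p = 7.11e-04). The copy WBGene00017270 had 819, 728 and 706 with cadmium, against 222, 309 and 219 without (1.61, SE 0.15, adjusted p = 1.29e-04). Both rose, with no overlap. For these copies, control(RNAi) worms had 132, 132 and 146, and 107, 409 and 186, with cadmium, against 21.6, 41.5 and 9.16, and 0.939, 5.32 and 3.05, without. The larger change of WBGene00017270 in control(RNAi) worms did not pass the test of the difference with all libraries (-4.47, adjusted p = 0.0607) but did without control(RNAi) library 1 with cadmium (-4.92, adjusted p = 0.0092), without library 2 of that group (-3.96, adjusted p = 0.0127), with the length trend removed (-4.63, adjusted p = 0.035) and with limma-trend or another count minimum (adjusted p of 0.0262 to 0.0384). The difference of WBGene00017270 did not pass with the other scalings or without any other single library. Its control(RNAi) counts without cadmium were low (0.939, 5.32 and 3.05), and the copies were not tested as a sum. For WBGene00017267 the difference of -1.43 (adjusted p = 0.089) passed only with the length trend removed (-1.59, adjusted p = 0.0372).

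**Figure D2:**
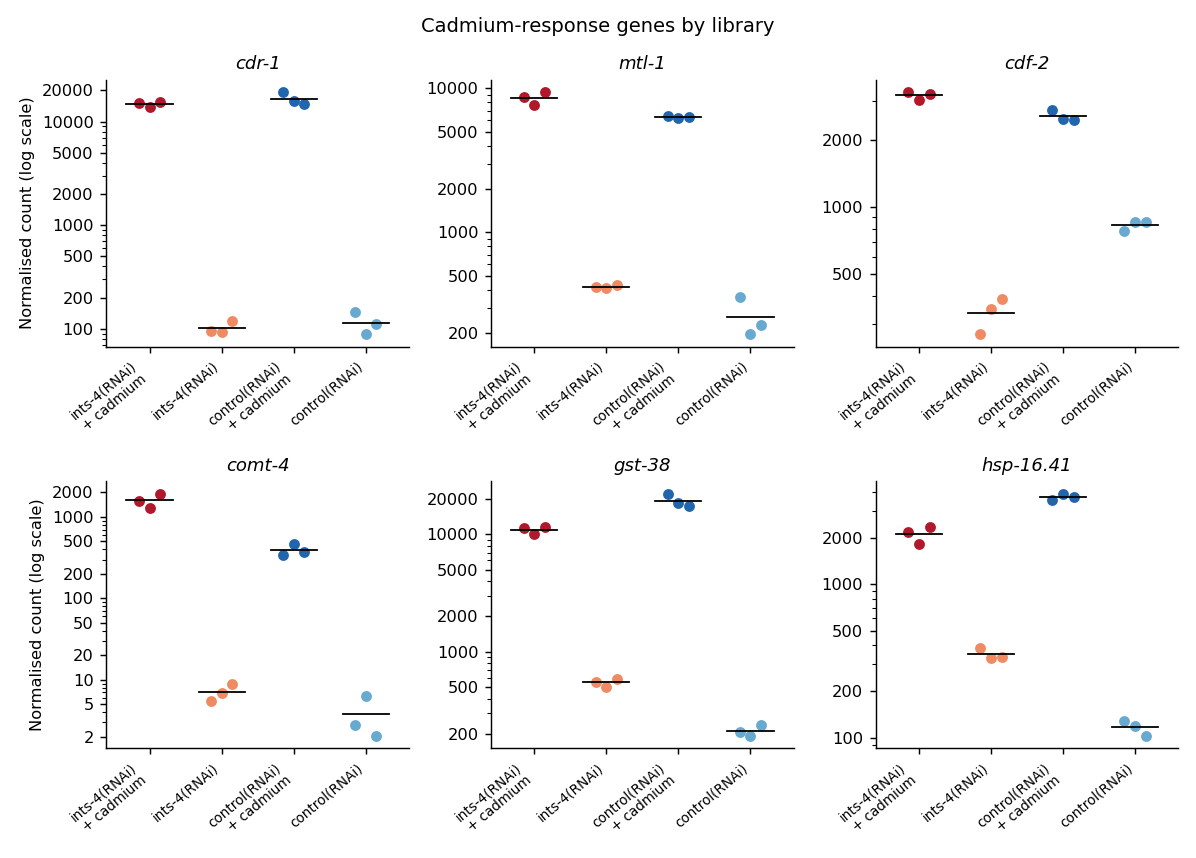
Normalised counts on a log axis for cdr-1, mtl-1, cdf-2, comt-4, gst-38 and hsp-16.41 in ints-4(RNAi) with cadmium, ints-4(RNAi), control(RNAi) with cadmium and control(RNAi). Points are libraries and lines are group means. In all 6 genes every cadmium library lies above every library without cadmium of the same RNAi, and the gap is narrower in ints-4(RNAi) for gst-38 and hsp-16.41 and wider for cdf-2.

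Enzymes that modify and conjugate foreign molecules followed. Of 40 tested glutathione S-transferase genes, whose products couple glutathione to reactive compounds, 17 rose and none fell, with a median log2 change of 0.97. Of all genes 2.78% rose and 1.74% fell. gst-38 (WBGene00001786) had 11248, 10153 and 11463 normalised counts in ints-4(RNAi) worms with cadmium, against 558, 504 and 589 without. It did not overlap and changed by 4.32 (SE 0.10, adjusted p = 3.49e-08). gst-19 (WBGene00001767) was nearly silent without cadmium, at 1.83, 14.9 and 7.84 normalised counts, against which the cadmium libraries had 248, 319 and 343. Its log2 change of 5.53 (SE 0.61, adjusted p = 3.72e-04) has the larger error that low counts give. gst-1, the most abundant member that rose, had 21894, 20705 and 22492 normalised counts with cadmium, against 3165, 3424 and 3437 without (2.70, SE 0.09, adjusted p = 2.44e-07). Among 18 genes of the oxidative stress regulator SKN-1 and of redox defence, gst-4 alone rose (1.71, adjusted p = 8.73e-05). The glutathione synthesis gene gcs-1 changed by 0.52 (adjusted p = 0.00866), and its change in control(RNAi) worms was larger (1.20, difference -0.70, adjusted p = 0.00694).

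Of 62 tested cytochrome P450 genes, which carry out the first oxidation of many foreign compounds, 14 rose and 3 fell, with a median of 0.54. The shares over all genes were 2.78% and 1.74%. cyp-13A4 (WBGene00011671) had 1254, 1067 and 1140 normalised counts with cadmium, against 83.4, 75.6 and 74.5 without. The groups were apart by a log2 change of 3.88 (SE 0.16, adjusted p = 1.56e-06). cyp-33C7 (2.67, adjusted p = 3.86e-06) and cyp-35A5 (2.04, adjusted p = 3.07e-04) rose too, and cyp-35A3 (-1.27) and cyp-29A4 (-1.10) were among those that fell. The third, cyp-33C12, had 9.04, 7.99 and 9.44 normalised counts with cadmium, against 40.3, 23.9 and 73.5 without. Its call (-2.17, adjusted p = 0.0334) was lost when any of 3 libraries was left out, with an adjusted p of up to 0.0994. Of 65 UDP-glucuronosyltransferase genes, whose products attach sugars to such compounds, 8 rose and none fell, with a median of 0.28. ugt-1 (WBGene00007072) led with 810, 862 and 853 normalised counts with cadmium, against 187, 173 and 152 without (2.30, SE 0.12, adjusted p = 4.83e-06).

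The comt genes encode catechol-O-methyltransferase-like enzymes, and 3 of 5 rose. comt-4 (WBGene00021491) had 1548, 1304 and 1937 normalised counts with cadmium, against 5.5, 6.97 and 8.82 without. This was the largest log2 change among the genes named here, 7.73 (SE 0.58, adjusted p = 3.96e-05), and its SE was larger than that of cdr-1. comt-3 rose by 2.15 (adjusted p = 2.16e-06) and comt-5 by 1.02 (adjusted p = 0.00128), or 0.88 with the length trend removed. Of 204 nuclear hormone receptor genes 8 rose and none fell, a share near the 2.78% of all genes, among them nhr-99 (2.27, adjusted p = 0.0019) and nhr-8 (1.35, adjusted p = 2.52e-04), a receptor with roles in xenobiotic and cholesterol metabolism. Genes of unknown role were also among the highest. T08G5.1 changed by 4.93 (adjusted p = 1.11e-04), F09C6.3 by 4.87 (adjusted p = 2.45e-05) and T16G1.6 by 4.40 (adjusted p = 1.09e-05).

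Several cytosolic heat shock genes rose. Of 21 tested, 9 rose and none fell, against 2.78% of all genes rising, with a median of 0.47. These were the small heat shock genes of the hsp-16 family, the small heat shock gene hsp-17, and the HSP70 genes hsp-70 and F44E5.5. hsp-16.41 (WBGene00002018) had 2204, 1831 and 2357 normalised counts in ints-4(RNAi) worms with cadmium, against 387, 330 and 337 without. The groups did not overlap (2.59, SE 0.13, adjusted p = 3.83e-06). hsp-70 (WBGene00002026) had 639, 714 and 593 normalised counts with cadmium, against 235, 235 and 215 without (1.50, SE 0.12, adjusted p = 6.23e-05). The copies of hsp-16.1 and of hsp-16.48 share sequence and their split is uncertain. The calls of the hsp-16.1 copies were lost without library 1 of ints-4(RNAi) (adjusted p = 0.0575 for WBGene00002015 and 0.0553 for WBGene00002017) and, for WBGene00002017, also without library 2 (adjusted p = 0.0662). The regulator gene hsf-1 overlapped between groups (-0.25, adjusted p = 0.28). Of 12 endoplasmic reticulum and 11 mitochondrial unfolded protein response genes tested, none reached the call, with medians of -0.10 and -0.09. Of these, hsp-4 had 23321, 21766 and 19559 normalised counts with cadmium, against 16759, 17171 and 19775 without, and hsp-6 had 11325, 12647 and 9680, against 13950, 13302 and 13579. Neither passed the test (adjusted p = 0.103 for hsp-4 and 0.0976 for hsp-6), but hsp-4 passed with the length trend removed (0.38, adjusted p = 0.00768) and without library 3 with cadmium (0.34, adjusted p = 0.0154). The mitochondrial chaperonin gene hsp-60 had 5331, 6310 and 5889 normalised counts with cadmium, against 9543, 8714 and 7368 without. Its groups were apart and it passed the test under 2-fold (-0.54, adjusted p = 0.0128), a call lost when any of 3 libraries was left out (up to 0.0662).

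For 3 of the 21 heat shock genes the change was more negative by at least 2-fold in ints-4(RNAi) than in control(RNAi) worms, against 2.36% of all genes, and for none more positive. hsp-16.41 had 3553, 3923 and 3708 normalised counts in control(RNAi) worms with cadmium, against 129, 119 and 102 without. Its level with cadmium was thus lower and its level without cadmium higher in ints-4(RNAi) worms, and the difference between the log2 changes was -2.42 (adjusted p = 1.49e-05). For hsp-16.2 the difference was -1.61 (adjusted p = 0.00282), while for hsp-70 it was -0.43 and did not pass (adjusted p = 0.351). Without control(RNAi) library 1 with cadmium 4 of the 21 passed at 2-fold or more. For the hsp-16.1 copy WBGene00002017 the difference of -2.31 (adjusted p = 0.0611) became -2.52 (adjusted p = 0.0288). For the hsp-16.48 copy WBGene00002020 that of -1.42 (adjusted p = 0.223) became -1.83 (adjusted p = 0.0147).

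Genes of infection and epidermal defence moved in part. Of 136 C-type lectin genes, whose products have sugar-binding domains and are often induced by pathogens, 13 rose and 5 fell, with a median of 0.07, and without library 3 with cadmium 13 rose and 1 fell. For this and the next lists, 2.78% of all genes rose and 1.74% fell. clec-12 (WBGene00012103) had 328, 325 and 397 normalised counts with cadmium, against 32.1, 48.8 and 51 without (3.01, SE 0.23, adjusted p = 4.45e-05). Of 45 lysozyme and pathogen response genes 8 rose and 2 fell. spp-23, a gene of the saposin-like family, had 8001, 6657 and 9308 normalised counts with cadmium, against 1919, 1755 and 1889 without (4.31-fold by the group means, adjusted p = 1.02e-05). Of 14 genes of the epidermal antimicrobial and osmotic response 4 rose and none fell. The myo-inositol cotransporter gene hmit-1.1 (WBGene00013073) had 4033, 3970 and 3552 normalised counts with cadmium, against 825, 796 and 962 without (2.17, SE 0.10, adjusted p = 3.48e-06). The antimicrobial peptide gene nlp-28 (1.87, adjusted p = 1.37e-04) and the glycerol synthesis gene gpdh-1 (1.29, adjusted p = 1.46e-04) rose with it.

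The pals genes, which mark the intracellular pathogen response, did not rise as a group in ints-4(RNAi) worms. Of 34 tested, 2 rose and 3 fell, with a median of -0.27, and without library 3 with cadmium 1 rose. Of all genes 2.78% rose and 1.74% fell. pals-19 had 82.4, 84.9 and 94.4 normalised counts with cadmium, against 15.6, 15.9 and 21.6 without (2.29, adjusted p = 7.40e-04). pals-37 had 38.2, 85.9 and 42 with cadmium, against 143, 107 and 92.2 without (-1.11, adjusted p = 0.0397), a call lost when any of 4 libraries was left out, with an adjusted p of up to 0.141. Among control(RNAi) worms 10 of 24 tested rose and none fell, against 5.6% of all genes rising and 3.23% falling there. The difference between backgrounds was at least 2-fold and past the test towards control(RNAi) in 9 of 34 and towards ints-4(RNAi) in 1. Over all genes these shares were 2.36% and 2.18%. The level of the list was higher in ints-4(RNAi) worms throughout. Its summed normalised counts were 5886, 5745 and 5792 with cadmium, against 6150, 6311 and 6638 without. Control(RNAi) sums, which the authors scaled separately, were 2853, 2598 and 2832 with cadmium, against 1725, 1625 and 1515 without. Of 4 genes of the inducible cullin ligase that acts in the same response, none reached the call, with a median of 0.74. skr-5, which encodes a Skp1-like adaptor, had 23.1, 32 and 48.2 normalised counts with cadmium, against 10.1, 18.9 and 7.84 without (1.49, adjusted p = 0.0556), and passed with the length trend removed (1.31, adjusted p = 0.0432). cul-6, the cullin gene, changed by -0.38 (adjusted p = 0.0153), and in control(RNAi) worms by 1.45, and the difference of -1.84 passed the test (adjusted p = 2.59e-05). Of 130 fbxa genes, a large F-box family, 14 rose and 1 fell with a median of 0.34, where 32 of 124 rose and 5 fell in control(RNAi) worms. The shares over all genes in each background are those given above for the pals genes.

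The genes that fell gave fewer groups. Among genes with a mean of at least 100 in one group, the lowest that passed was ZC84.1 (WBGene00013846), with 23.1, 33 and 17.8 normalised counts in ints-4(RNAi) worms with cadmium, against 203, 206 and 219 without. The groups lay far apart (-3.10, SE 0.26, adjusted p = 8.73e-05). D1054.9 (WBGene00008376) had 120, 206 and 163 normalised counts with cadmium, against 685, 739 and 656 without (-2.12, SE 0.17, adjusted p = 6.78e-05). abu-7 (WBGene00000030), of a family of glutamine-rich proteins, had 25.1, 18 and 23.1 with cadmium, against 103, 119 and 100 without (-2.26, SE 0.27, adjusted p = 6.03e-04). By the ratio of group means B0393.8 and mct-2 were lower still, but each rested on libraries that disagreed. B0393.8 had 12.1, 11 and 74.5 normalised counts with cadmium, against 535, 746 and 16.7 without (adjusted p = 0.361), and without ints-4(RNAi) library 3 its log2 change of -4.86 passed (adjusted p = 0.00149). mct-2 (WBGene00021227) had 13.1, 7.99 and 15.7 with cadmium, against 12.8, 11.9 and 301 without (adjusted p = 0.472).

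Moulting and yolk genes were lower, by amounts that moved with transcript length. Of 20 moulting and apical matrix genes 4 fell and none rose, with a median of -0.63, against 1.74% of all genes falling. mlt-11 (WBGene00012186), which encodes a protease inhibitor-like protein needed for moulting, had 11918, 13489 and 8951 normalised counts with cadmium, against 23863, 25764 and 29932 without (-1.22, SE 0.15, adjusted p = 7.30e-04). The astacin protease gene nas-37 had 1602, 1437 and 1421 with cadmium, against 2916, 3235 and 3249 without (-1.07, SE 0.09, adjusted p = 1.04e-04). Both sets of libraries were apart. With the length trend removed the changes became -0.62 for mlt-11 (adjusted p = 0.00406) and -0.91 for nas-37 (adjusted p = 1.53e-04). Both still passed the test but were under 2-fold. None of the 20 then reached the call, and the median was -0.49. Without library 3 of the cadmium group 2 of the 20 fell. The collagen gene bli-1, of the cuticle of adults, behaved alike, with 9404, 9374 and 8296 normalised counts with cadmium against 18945, 21879 and 19258 without (-1.15, and -0.92 with the length trend removed). Of 127 col collagen genes 2 rose and 2 fell.

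The vitellogenin genes encode yolk proteins made in the adult gut, and 2 of 6 fell. vit-6 (WBGene00006930) had 4186, 4284 and 2897 normalised counts in ints-4(RNAi) worms with cadmium, against 7401, 8021 and 7781 without (-1.05, SE 0.14, adjusted p = 0.00137). The groups did not overlap and library 3 was the lowest. With the length trend removed its change was -0.63 (limma-voom adjusted p = 0.00196), and without library 3 with cadmium -0.86 (adjusted p = 2.01e-05). Both passed the test but were under 2-fold, and in neither setting did any of the 6 reach the call. Control(RNAi) worms had 5387, 6470 and 7647 normalised counts of vit-6 with cadmium, against 37690, 46313 and 54064 without, and there all 6 genes fell. The difference between backgrounds passed for all 6, also with the length trend removed and without control(RNAi) library 1 with cadmium, and for vit-6 it was 1.76 (adjusted p = 5.75e-04). Oocyte and eggshell genes showed the same contrast. Of 32, meg-1 alone fell in ints-4(RNAi) worms (51.2, 18 and 19.9 normalised counts with cadmium, against 70.5, 90.6 and 91.2 without, -1.63, adjusted p = 0.0156, and 0.0506 without ints-4(RNAi) library 2), while 21 fell in control(RNAi) worms, and the difference passed for 14. Of 42 histone genes 2 fell, his-3 among them (124, 105 and 171, against 366, 375 and 391 normalised counts, -1.53, adjusted p = 3.92e-04), against 13 of 36 in control(RNAi) worms. Of all genes 1.74% fell in ints-4(RNAi) and 3.23% in control(RNAi) worms.

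Other groups had no member past the call in ints-4(RNAi) worms. These were the 11 Integrator subunits (median -0.12), 14 Sm and Lsm proteins of the snRNP core (0.19), 12 SR proteins and 3′ splice site factors (-0.01), the 6 furrow collagens (-0.47) and the 54 tested sperm genes (-0.27). The summed normalised counts of the sperm genes were 98103, 85851 and 157430 with cadmium, against 148198, 159914 and 96178 without, so library 3 of each group lay on the other group's side. Marker lists for intestine (7 tested), body muscle (6), pharynx (9) and neurons (11) had no member past the call, with medians of 0.19, -0.01, -0.20 and 0.08. Of 10 epidermis markers bli-1 fell, with a median of -0.51. Of 78 ribosomal protein genes, 16 could be separated into libraries and none reached the call.

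Integrator acts at genes for small nuclear RNA, and most genes annotated as such with reads were lower with cadmium. They were looked at after the values had been seen. Of 129 such genes 34 had enough reads to be tested, 31 had a log2 change below 0, 9 fell and none rose, against 1.74% of all genes falling. The median log2 change was -0.70, and -0.02 for all genes. Some other short or non-coding classes were lower too, with medians of -0.84 for 8 miRNA genes (2 fell), -0.66 for 35 piRNA genes (3 fell), -0.45 for 225 genes annotated as ncRNA (19 fell) and -0.35 for 60 snoRNA genes (5 fell). The 75 lincRNA genes were not, with a median of 0.19 (1 rose, 0 fell). For 615 pseudogenes the median was -0.10 (12 rose, 12 fell). The 3 libraries with cadmium were all below the 3 without in 21 of the 34, and all above in 0. The share of all tested genes with groups apart was not counted. At any fold, 14 of the 34 were lower with a limma-voom adjusted p under 0.05, against 1268 of 16883 genes. The summed normalised counts of the 34 genes were 6647, 7291 and 7146 in ints-4(RNAi) worms with cadmium, against 12006, 11669 and 11756 without. The sums did not overlap and differed little within a group. With the length trend removed 10 fell and the median was -0.74, and without library 3 of the cadmium group 7 fell.

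The 9 that fell changed by log2 values of -2.01 to -1.05. F40G12.14 (WBGene00014371, V:14277574-14277738, plus strand) had 1042, 1023 and 1136 normalised counts with cadmium, against 2715, 2378 and 2755 without (-1.29, SE 0.10, adjusted p = 3.96e-05). The steepest was F11A5.14 (WBGene00014322), with 20.1, 35 and 35.7 with cadmium, against 109, 115 and 136 without (-2.01, SE 0.28, adjusted p = 0.00139). Many snRNA genes have near-identical copies, so reads may be split among them. The spliced leader 2 genes, sls-2, make the RNA that is joined to the downstream genes of operons. Of 8 sls-2 genes tested, 7 had a log2 change below 0 and 4 fell. sls-2.10 (WBGene00004842, IV:9130721-9130829, minus strand) had 300, 248 and 276 normalised counts with cadmium, against 625, 565 and 557 without (-1.08, SE 0.12, adjusted p = 3.40e-04). Of 6 smy genes, whose SmY RNAs take part in trans-splicing, all were below 0 and none reached 2-fold with an adjusted p under 0.05, and smy-1 came closest (394, 438 and 390, against 792, 798 and 831 normalised counts, -0.99, adjusted p = 2.09e-04). Neither of the 2 sls-1 genes tested passed. The coordinates are those of the WBcel235 annotation.

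Reads over these genes came almost only from ints-4(RNAi) libraries. The 34 were, however, chosen by a mean count of at least 10 in an ints-4(RNAi) group. Over all 129 annotated snRNA genes the sums of the group means were 7079 in ints-4(RNAi) worms with cadmium and 11880 without. In control(RNAi) worms they were 49.1 with cadmium and 26.2 without. Control(RNAi) sums over the same 34 genes were 29.8, 23.4 and 29.8 normalised counts with cadmium and 9.39, 12.8 and 9.16 without, and 23 of the 34 were at 0 in both groups. snRNAs carry no poly(A) tail, so a mature snRNA is not what an oligo(dT) library captures, and which transcripts gave these reads was not tested. Genes that begin within 2 kb downstream of an snRNA gene on the same strand were looked at as well. Of 63 such genes 28 were tested, 1 rose (a copy of hsp-16.48), none fell, and the median log2 change was -0.04. At any fold 5 were lower and 2 higher with an adjusted p under 0.05. Of the 28, 13 lay behind one of the 34 tested snRNA genes and 0 behind one of the 9 that fell, so these genes do not show whether a fall extended downstream. The median normalised count of the 28 was 346 in ints-4(RNAi) worms with cadmium and 396 without, against 52.1 and 20.8 in control(RNAi) worms. These genes also had to pass the count minimum in ints-4(RNAi) worms only, so the lower control(RNAi) medians are in part set by that choice.

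**Figure D3:**
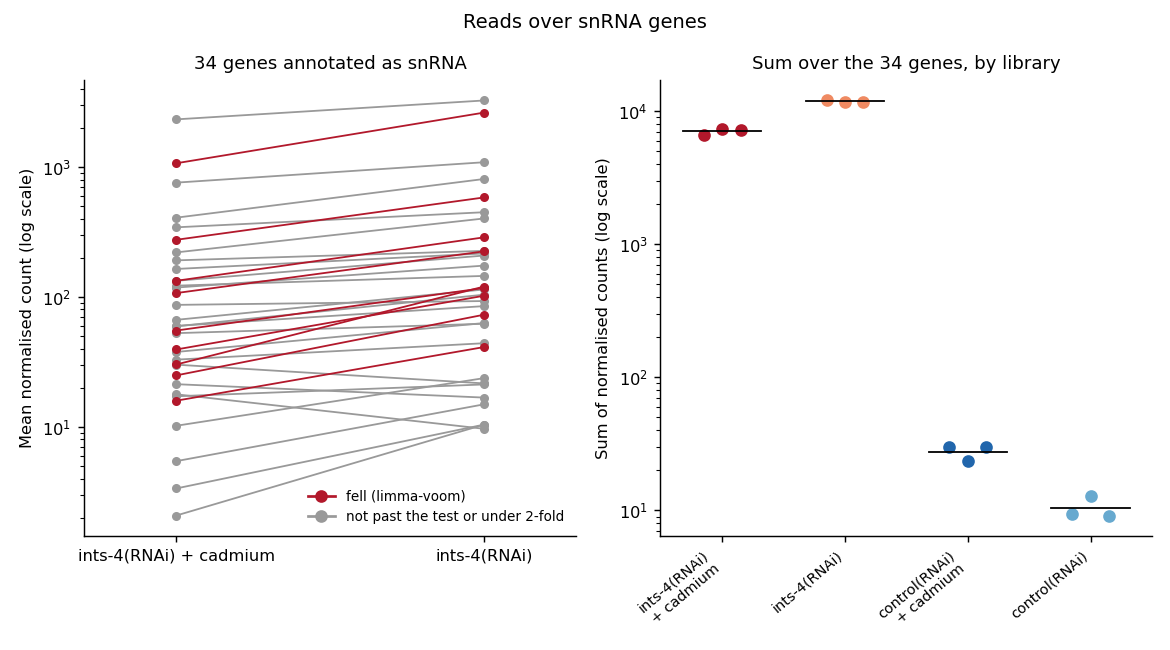
Left, mean normalised count on a log axis of each of the 34 tested genes annotated as snRNA, with a line that joins its value in ints-4(RNAi) with cadmium to that in ints-4(RNAi), and the 9 that fell in red. Right, the summed normalised count of the 34 genes in each library of the 4 groups on a log axis, which lies between 6647 and 7291 in ints-4(RNAi) with cadmium, between 11669 and 12006 in ints-4(RNAi), and below 30 in both control(RNAi) groups. The 34 genes were chosen by their counts in ints-4(RNAi) libraries.

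The response in ints-4(RNAi) worms was then set beside that in control(RNAi) worms, where 897 of 16010 genes rose (5.6%) and 517 fell (3.23%). The libraries of the contrasts are separate. Of 454 genes that rose in ints-4(RNAi) worms and were tested in both, 289 (63.7%) also rose in control(RNAi) worms, which is 33.3% of the 867 that rose there. Of 203 that fell, 54 (26.6%) also fell in control(RNAi) worms, 11.5% of the 471 that fell there. Only 2 genes rose in ints-4(RNAi) and fell in control(RNAi) worms, and 2 did the reverse. Across 15734 genes the log2 ratios of the group means had a Pearson r of 0.53 and a Spearman rho of 0.46, given as a description, since genes are not independent replicates. By those means 117 genes (0.744%) had a ratio at least 4-fold higher in ints-4(RNAi) than in control(RNAi) worms, and 231 (1.47%) one at least 4-fold lower. In the test of the difference itself, 375 of 17220 genes (2.18%) had a cadmium change that was more positive by at least 2-fold in ints-4(RNAi) worms, and 406 (2.36%) one that was more negative. Without control(RNAi) library 1 with cadmium these counts were 372 and 505, including 320 and 378 of the same genes.

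Genes with a more negative change in ints-4(RNAi) worms were mostly already high there without cadmium. These levels are among the values the test of the difference was made from, so they describe the genes and are no separate support. How often all genes have such levels was not counted. The median normalised count of the 406 genes was 341 in ints-4(RNAi) worms with cadmium and 298 without, against 307 and 77.3 in control(RNAi) worms. Without cadmium 276 of the 406 were at least 2-fold higher in ints-4(RNAi) than in control(RNAi) worms and 12 lower, while with cadmium 83 were higher and 93 lower. fbxa-163 (WBGene00015598) had 3922, 3636 and 3532 normalised counts in ints-4(RNAi) worms with cadmium, against 1747, 1590 and 1889 without. It still rose there (1.09, SE 0.10, adjusted p = 1.15e-04). Its control(RNAi) counts were 2298, 1942 and 1904 with cadmium, against 9.39, 10.6 and 9.16 without, and the difference of -6.57 was the largest of the named genes (adjusted p = 1.15e-06). F08G2.5 (WBGene00008577) had 7714, 7314 and 9550 normalised counts in ints-4(RNAi) worms with cadmium, against 6486, 6593 and 5802 without (0.37, adjusted p = 0.0542). The control(RNAi) counts were 2333, 3181 and 3460 with cadmium, against 122, 89.4 and 70.2 without. The claudin-like gene clc-32 had 2028, 1908 and 1865 normalised counts in ints-4(RNAi) worms with cadmium, against 1127, 1142 and 1248 without. Control(RNAi) worms had 263, 237 and 195 with cadmium, against 6.57, 6.39 and 6.1 without (difference -4.36, adjusted p = 5.02e-05). Of 133 fbxa genes tested for the difference, 14 had a more negative and 5 a more positive change in ints-4(RNAi) worms. Over all genes the shares were 2.36% and 2.18%. The comparisons of levels between backgrounds use values that the authors scaled in separate tables.

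Genes with a more positive change in ints-4(RNAi) worms were mostly lower there without cadmium. Here too the levels are part of what the test of the difference used, so they only describe the genes it called. The median normalised count of the 375 genes was 313 in ints-4(RNAi) worms with cadmium and 244 without, against 247 and 550 in control(RNAi) worms. Without cadmium 215 of them were at least 2-fold lower in ints-4(RNAi) than in control(RNAi) worms and 6 higher, while with cadmium 71 were higher and 13 lower. cyp-35A5 (WBGene00019473) changed in opposite directions. It had 152, 143 and 147 normalised counts in ints-4(RNAi) worms with cadmium, against 43.1, 29.9 and 34.3 without, and rose. Control(RNAi) worms had 168, 190 and 198 with cadmium, against 304, 382 and 352 without (-0.89, adjusted p = 0.00576), and the difference was 2.91 (adjusted p = 3.81e-05). cyp-25A1 likewise changed by 1.18 (adjusted p = 0.00387) in ints-4(RNAi) and by -1.63 (adjusted p = 6.85e-04) in control(RNAi) worms. ugt-6 had 46.2, 91.9 and 60.8 normalised counts in ints-4(RNAi) worms with cadmium, against 122, 115 and 119 without. Control(RNAi) worms had 9.94, 36 and 34.7 with cadmium, against 710, 761 and 651 without, a steeper change (difference 3.98, adjusted p = 2.34e-04). Of 68 cytochrome P450 genes tested for the difference, 9 had a more positive and 1 a more negative change in ints-4(RNAi) worms. Of 66 UDP-glucuronosyltransferase genes, 10 and 1 did. Over all genes the shares were 2.18% more positive and 2.36% more negative.

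**Figure D4:**
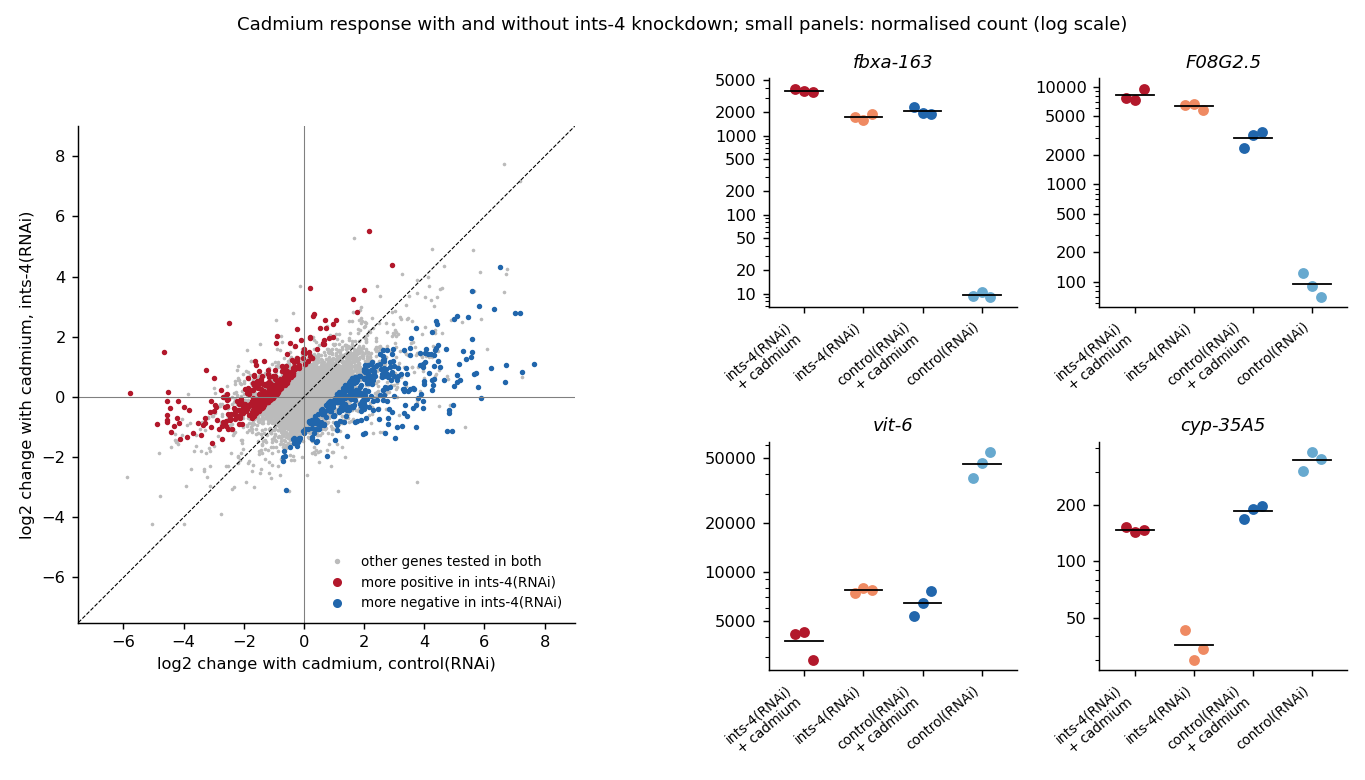
Left, the log2 cadmium change of each gene tested in both backgrounds, in ints-4(RNAi) (vertical) against control(RNAi) (horizontal), with genes whose difference passed the test in red (more positive in ints-4(RNAi)) and blue (more negative) and a dashed line of equal change. Right, normalised counts on log axes of fbxa-163, F08G2.5, vit-6 and cyp-35A5 in the 4 groups, with points for libraries and lines for means. fbxa-163 and F08G2.5 are high in every ints-4(RNAi) library and low only in control(RNAi) without cadmium, where vit-6 is highest.

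Splicing was measured in the same libraries as the inclusion level, the length-corrected share of event reads that include an exon or a part of it. Of 2603 events held for both ints-4(RNAi) groups, 2203 had at least 10 reads in each of the 6 libraries, and the median event had 171 reads per library with cadmium and 213 without. A quasi-binomial test called 11 (0.499%), 3 with more and 8 with less inclusion with cadmium, and 220 had an unadjusted p under 0.05. The calls fell on 7 of 1378 cassette exons, 2 of 413 alternative 3′ splice sites, 1 of 107 retained introns, 1 of 130 mutually exclusive exon pairs and 0 of 175 alternative 5′ splice sites. The count rested on single libraries, with 22 called without library 3 of the cadmium group and 4, 5 and 7 without libraries 1, 2 and 3 of ints-4(RNAi). By the same test 22 of 3005 events (0.732%) were called in control(RNAi) worms. Over events with enough reads in all 12 libraries the counts were 11 of 2110 (0.521%) in ints-4(RNAi) and 48 of 2008 (2.39%) in control(RNAi) worms, a gap that was not itself tested. With limma on the log2 ratio of reads no ints-4(RNAi) event was called, and 120 had an unadjusted p under 0.05.

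In 4 events the quasi-binomial call held when any library was left out, though not with limma on the log2 ratio (adjusted p of 0.832 to 0.846). Under robust moderation lea-1 (adjusted p = 0.126) and F08B12.4 (0.344) lost theirs as well. The cassette exon of C34F11.3 (II:5205444-5205632, plus strand, 189 bases) was included in 7.76%, 4.61% and 7.54% in ints-4(RNAi) worms with cadmium, against 15.2%, 15.1% and 14% without. The groups were apart, with a change of -8.16 points (adjusted p = 7.88e-05), and control(RNAi) worms had -5.15 points (adjusted p = 0.0252). The cassette exon of cas-1 (X:16809699-16811981, minus strand), whose product is a CAP-family actin regulator, was included in 11%, 10.4% and 7.68% with cadmium, against 15%, 14.5% and 17.2% without (-5.9 points, adjusted p = 2.34e-04). Its change in control(RNAi) worms was -5.53 points (adjusted p = 0.354). That of lea-1 (V:10022677-10023048, plus strand), which encodes a protein that protects against desiccation, was included in 93.2%, 92.1% and 96.4% with cadmium, against 89.5%, 88.9% and 86.4% without (5.61 points, adjusted p = 0.00147). It lost its call under robust moderation of the dispersion (adjusted p = 0.126), and changed by 5.73 points in control(RNAi) worms (adjusted p = 0.0504). The cassette exon of F08B12.4 (X:11407494-11407553, minus strand, 60 bases) was included in 94.8%, 93.9% and 98.6% with cadmium, against 100%, 100% and 99.6% without (-4.13 points, adjusted p = 6.32e-06, and 0.344 under robust moderation). Its change in control(RNAi) worms was 1.23 points (adjusted p = 0.217). In none of the 4 did the groups overlap, but for F08B12.4 the cadmium libraries differed among themselves by about as much as the groups did.

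The largest changes in inclusion each depended on single libraries. The cassette exon of mbl-1 (X:17006973-17007197, plus strand, 225 bases), which itself encodes a Muscleblind splicing regulator, was included in 56%, 56.1% and 45.7% with cadmium, against 36%, 28.9% and 37.7% without (18.4 points, adjusted p = 0.0366). The change in control(RNAi) worms was -1.37 points, and the difference did not pass (adjusted p = 0.292). The 9-base alternative 3′ splice site segment of C53A5.6 (V:14545472-14545480, minus strand) was included in 20.7%, 15.9% and 19.9% with cadmium, against 44.1%, 41.5% and 30.1% without (-19.7 points, adjusted p = 0.0366). The exon of eps-8 (IV:14894167-14894241, plus strand, 75 bases), whose product caps and bundles actin, was included in 24.2%, 15.5% and 19.6% with cadmium, against 32.8%, 39% and 41.6% without (-18 points, adjusted p = 0.0366). Control(RNAi) worms had -12.3 points for C53A5.6 (adjusted p = 0.336) and -3.06 for eps-8 (adjusted p = 0.723). Neither difference between backgrounds passed (adjusted p = 0.679 and 0.313). None of the 3 overlapped between groups, yet each lost its call when any of 4 of the 6 libraries was left out, with an adjusted p of up to 0.19 for mbl-1, 0.301 for C53A5.6 and 0.26 for eps-8. Under robust moderation all 3 passed (adjusted p = 0.0326 each). The other named events were smaller and also lost their calls in places. C37C3.2 changed by -4.4 points (lost without any of 4 libraries, adjusted p of up to 0.281), tts-1 by -2.64 points (3 libraries, up to 0.152) and unc-87 by 0.146 points (2 libraries, up to 0.157, and 0.154 under robust moderation). In control(RNAi) worms C37C3.2 changed by -4.7 points, tts-1 by -1.21 and unc-87 by 0.137. The call in ubq-1, a tandem-repeat ubiquitin gene, had overlapping groups, lost its call under robust moderation (adjusted p = 0.644), and was chosen for mention after its values were seen.

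Of 2165 events tested for a different cadmium change between backgrounds, 3 passed (0.139%), and 194 had an unadjusted p under 0.05. In all 3 the inclusion level hardly moved in ints-4(RNAi) worms. The event scored as mutually exclusive exons in F08B12.4 includes the cassette exon above. Its other exon (X:11407359-11407421) is a flanking exon of that cassette event, where inclusion was 93.9% or more in each ints-4(RNAi) library. Reads of transcripts that hold both exons can thus count here, and the level need not measure a choice between them. This level was 48.7%, 51.7% and 49.6% in ints-4(RNAi) worms with cadmium, against 51.7%, 51.4% and 51.2% without. The control(RNAi) level was 55.1%, 55% and 52.3% with cadmium, against 35.1%, 32.8% and 35% without (difference -21.3 points, adjusted p = 2.70e-07). The cassette exon of dct-17 (V:13727986-13728651, minus strand) was included in 51.6%, 50.5% and 45.8% in ints-4(RNAi) worms with cadmium, against 54.3%, 49.3% and 55.7% without. In control(RNAi) worms it was included in 49.7%, 48% and 46.5% with cadmium, against 23.6%, 28.3% and 24.9% without (difference -26.3 points, adjusted p = 0.0233). The 12-base alternative 3′ splice site segment of mtm-3 (III:3799864-3799875, minus strand), a myotubularin family gene, was included in 31.8%, 17% and 25.8% in ints-4(RNAi) worms with cadmium, against 21.9%, 16.8% and 29.5% without. In control(RNAi) worms it was included in 0%, 1.19% and 0% with cadmium, against 28.8%, 41% and 24% without (difference 33 points, adjusted p = 0.0233), and at 101, 68 and 68 reads a share near 0 is limited by depth. The F08B12.4 call held when any library was left out, while dct-17 lost it without 5 of the 12 libraries (adjusted p of up to 0.13) and mtm-3 without 8 (up to 0.125). The count was 6 without control(RNAi) library 2 with cadmium and 1 without any of ints-4(RNAi) library 1 and control(RNAi) libraries 1 and 2.

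**Figure D5:**
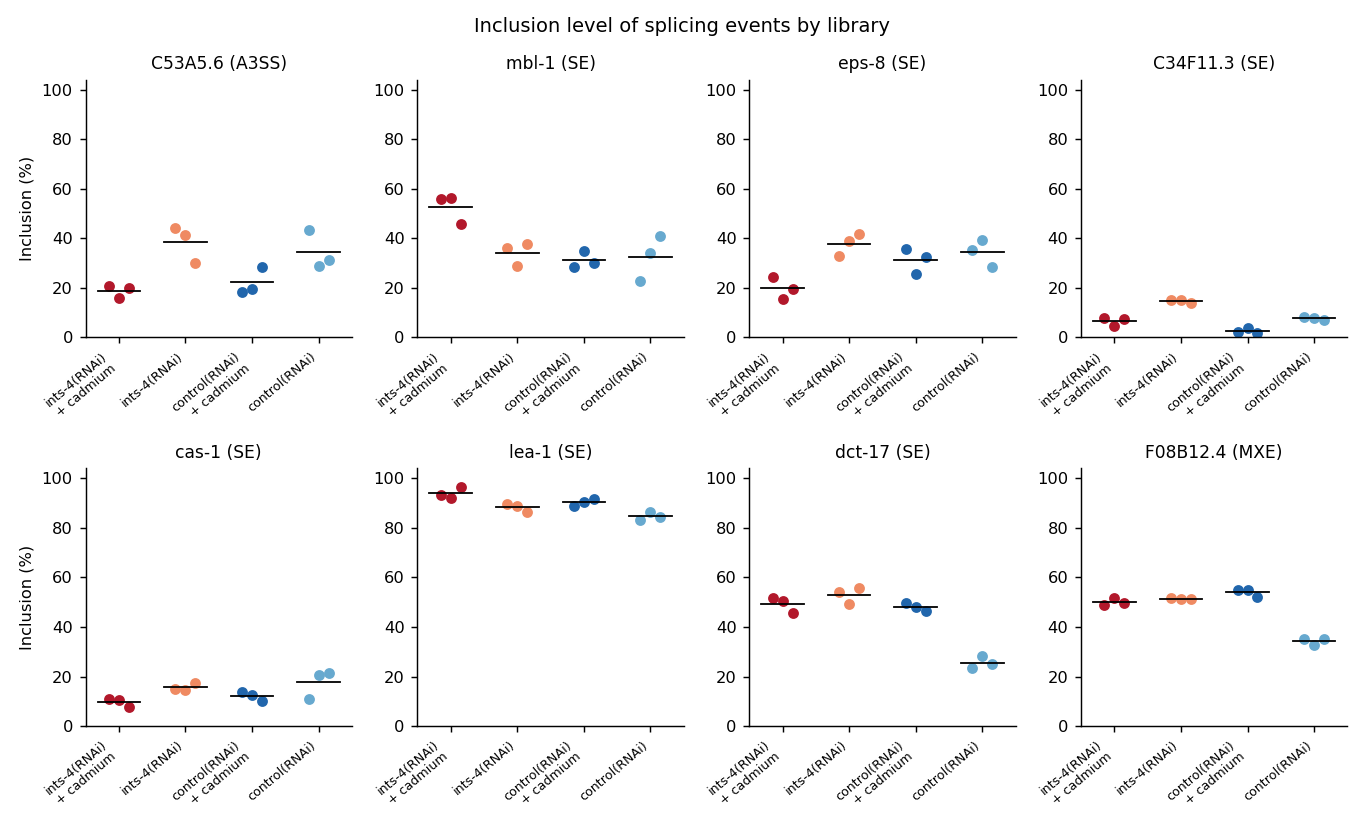
Inclusion level in percent, by library (points) and group mean (lines), of 8 splicing events (A3SS, alternative 3′ splice site; SE, cassette exon; MXE, mutually exclusive exons) in ints-4(RNAi) with cadmium, ints-4(RNAi), control(RNAi) with cadmium and control(RNAi). In C53A5.6, mbl-1, eps-8, C34F11.3, cas-1 and lea-1 the ints-4(RNAi) groups are apart. In dct-17 and in the event scored as mutually exclusive exons in F08B12.4 only control(RNAi) without cadmium lies away from the rest.

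The reads over splicing events gave a second measure of expression per library, for genes that have such events. Of 1636 genes, 107 passed (6.54%). All 105 that limma-voom had also tested moved in the same direction, and 82 of them had an adjusted p under 0.05 by limma-voom. Both measures come from reads of the same libraries, so the shared direction is no separate support. cdr-1 had 8852, 8064 and 6803 reads over its main event with cadmium, against 48, 56 and 87 without (7.04, SE 0.19, adjusted p = 1.95e-08), close to its 7.18 from gene counts. comt-3 had 1713, 1584 and 1713 reads with cadmium, against 415, 343 and 381 without (2.23, SE 0.12, adjusted p = 9.71e-06). The lowest change of the genes named by this measure was that of unc-89. This gene, which encodes a giant protein of the muscle sarcomere, had 114, 369 and 38 reads with cadmium, against 714, 522 and 1095 without, so library 3 was the lowest of the cadmium group. Its log2 change over event reads was -2.55 (SE 0.61, adjusted p = 0.0407), against -0.64 (adjusted p = 0.035) from gene counts. The count was 247 without cadmium library 2, 46 without cadmium library 1, and 32, 28 and 28 without libraries 1, 2 and 3 of ints-4(RNAi). For 46 of 1634 genes (2.82%) the change differed between backgrounds by this measure.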

How the data were processed

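Per the submitters' processing notes the authors aligned paired reads with HISAT2 2.1.0, counted them per gene with HTSeq 0.6.1 and used Cufflinks 2.1.1, and called splicing events with rMATS, with a genome build not given in the sources used here. The deposited expression tables hold 1 signal value per gene and group, the mean over 3 libraries of the read count divided by the size factor of the library. The deposited event tables hold, per event, the inclusion and skipping read counts of the 3 libraries in 1 cell, in places with the separators lost. Columns of fold changes and p-values made by the authors for their own comparisons were not used. Whole counts of each library were recovered from the 15 digits of the means by lattice reduction, with 24052 of 24052 ints-4(RNAi) genes the same from 2 tables, and recovered libraries were matched to the positions in the event cells by the correlation of their deviations. Of 22328 cell pairs, 9659 kept their separators, 8099 could be split in 1 way and 4538 were split by a limit of 4 on the ratio of total reads.

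The design fixed for the means was a ratio with no test (at least 10 in 1 group). Since whole counts could be recovered, limma-voom (limma 3.58.1, R 4.3.3) with median-ratio scaling and a mean count of at least 10 in 1 group was added after the data had been seen, and its interaction term tested the difference between backgrounds. Events used a quasi-binomial model with limma's moderated dispersion and at least 10 reads in each library. Event reads per gene used limma on log2 event reads scaled to the library total, plus 1. Adjusted p-values are Benjamini-Hochberg, over all features tested. Scripts ran under python 3.11.15 with numpy 2.4.6 and pandas 2.3.3, and the fits were tested on simulated data with a fixed spread. There, limma-voom recovered 52 of 100 planted 2-fold and 98 of 100 planted 4-fold changes, with 11 false calls among 161. The quasi-binomial test recovered 128 of 200 planted shifts of 20 points, with 2 false calls among 130. A gene or event without a call may thus still have changed.

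Members and gene lists were chosen with earlier results of these data known. Genes named by rule were those the study names, the 8 highest and 8 lowest by the ratio of means (at least 100 in the higher group), up to 4 of each list past 2-fold (at least 20), and the 6 largest differences between backgrounds in each direction. Further genes, among them cul-6, gcs-1 and the snRNA genes, were chosen after their values were seen. Events named were the 10 that passed with the largest change, at least 20 reads in each library and no overlap, and those past the test of the difference. Symbols, types and positions came from the WBcel235 annotation, in which 29952 of 31592 exon ends of the events were found (94.8%). Alternatives were other scalings, count minimums and models, the length trend removed, and each library left out.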

Additional observations from a re-analysis of the deposited data

Results flagged for a closer look

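Of the named genes, 41 passed the test of the difference between ints-4(RNAi) and control(RNAi) worms in their cadmium change, and the 19 that differed by at least 4-fold are given here with the 3 events that passed. Some of these genes were named for a large difference between backgrounds in the same data, and others for a large cadmium change. Both gene counts are thus in part set by that choice and do not show how common such differences are. Over all genes, 1714 of 17220 had an adjusted p under 0.05 in the limma-voom test of the difference, at any fold. Values are ints-4(RNAi) minus control(RNAi), on the log2 scale for genes. Toward a more negative change in ints-4(RNAi) worms, the stress genes hsp-16.41 (-2.42), gst-38 (-2.22), gst-30 (-2.82) and hmit-1.1 (-2.09) passed. The defence genes clec-12 (-2.82), clec-143 (-2.41) and pals-37 (-2.22) did too, pals-37 with changes of -1.11 in ints-4(RNAi) and 1.09 in control(RNAi) worms. clec-143 had 328, 309 and 280 normalised counts in ints-4(RNAi) worms with cadmium, against 49.5, 40.8 and 52 without, and 486, 490 and 472 in control(RNAi) worms with cadmium, against 10.3, 9.58 and 26.5 without. The largest negative differences were those of fbxa-163 (-6.57), F19B10.13 (-5.90), Y82E9BL.18 (-4.64), F08G2.5 (-4.64) and clc-32 (-4.36). F19B10.13 had 646, 683 and 730 normalised counts in ints-4(RNAi) worms with cadmium, against 721, 656 and 712 without, and 198, 330 and 354 in control(RNAi) worms with cadmium, against 24.4, 0 and 7.12 without. ZC84.1 (-2.53) was lower with cadmium in ints-4(RNAi) worms by more than in control(RNAi) worms.

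Toward a more positive change in ints-4(RNAi) worms, gst-19 (3.36), fbxa-84 (3.38), cyp-25A1 (2.80), cyp-35A5 (2.91), F48G7.5 (3.49) and ugt-6 (3.98) passed. fbxa-84 had 40.2, 34 and 40.9 normalised counts in ints-4(RNAi) worms with cadmium, against 0.916, 4.98 and 3.92 without, and 37.8, 44.8 and 48.1 in control(RNAi) worms with cadmium, against 38.5, 39.4 and 34.6 without. F48G7.5 had 169, 183 and 153 in ints-4(RNAi) worms with cadmium, against 301, 215 and 317 without, and 23.9, 4.87 and 10.6 in control(RNAi) worms with cadmium, against 275, 169 and 190 without. The calls of ZC84.1, gst-19 and clec-12 were each lost without 2 of the 12 libraries (limma-voom adjusted p of up to 0.0556, 0.0716 and 0.0564 in that order), and that of pals-37 without 8 (up to 0.0924). The events were those of mtm-3 (33 points), dct-17 (-26.3 points) and the one scored as mutually exclusive exons in F08B12.4 (-21.3 points).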

How the results depend on the processing

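By the means of the authors, 1265 genes changed at least 2-fold, against 657 with a minimum of 50 and 3562 with none, and 348 differed at least 4-fold between backgrounds, against 151 and 1210. The limma-voom count of 764 genes was 442 with limma-trend and between 579 and 861 when any library was left out, and the 781 differences between backgrounds ran between 621 and 877. The 11 splicing calls were 7 under robust moderation, 0 with limma on the log2 ratio of reads (120 at an unadjusted p under 0.05), 0 where only cells with their separators were kept, and between 4 and 22 when a library was left out. The 3 splicing differences were 0 with limma, 1 with separators kept, and between 1 and 6 with a library left out. Reads over events gave 107 genes, and 28 to 247 with a library left out, and their difference 46, and 21 to 82. The log2 change of myo-1, a pharynx muscle myosin, was -0.23, and 0.27 with the length trend removed. The cause of these shifts was not tested, except that a higher minimum tests fewer genes. Of the named genes, 3 to 15 lost their call with a library left out and 0 to 2 under the other settings. No paired analysis was possible because the means and the event cells carry no replicate numbers. Abundant genes that could not be separated into libraries, and events with few reads, limit what could be tested.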
